A study of Mus musculus with 10 samples.

Results

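Type 1 regulatory T cells are CD4+ T cells that suppress through the cytokine interleukin 10 rather than through the factor Foxp3. The genes followed here are Il10, which encodes that cytokine, Lag3, which encodes an inhibitory receptor used to recognise such cells, and 7 transcription factors tied to Il10 expression in T cells, namely Maf, Ahr, Prdm1, Irf4, Batf, Egr2 and Nfil3. They were taken by gene symbol and are 9 of the 17097 genes named on the array, with 12 of its 28898 probe sets that carry a single symbol. Ahr, Irf4 and Egr2 have a pair of probe sets each, and the one with the highest mean over the 10 arrays stands for the gene. All 9 passed the filter on dim genes, among 11037 genes tested.

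Splenic CD4+ T cells of DBA/1 mice, which are an inbred strain prone to induced arthritis, were measured on Affymetrix mouse expression arrays. CD49b+ cells (n = 3), CD25+ cells (n = 3) and CD4+ cells (n = 2) came from mice injected into the peritoneum with 500000 immature dendritic cells 7, 5 and 3 days before the spleens were taken, and further CD4+ cells (n = 2) came from naive mice. CD4+ cells were enriched with magnetic beads and sorted after staining for CD4, CD49b and CD25, from pools of several mice, and the labels do not say whether the CD49b+ gate left out CD25+ cells or whether the arrays labelled CD4+ left out either subset. Nothing in the labels says that the replicates came from separate pools, so p-values speak only of the spread among these samples, and that spread may be technical. CD49b+ or CD25+ cells of naive mice were not analysed here.

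In T cells, cytokines such as interleukin 27 and signals from the antigen receptor induce c-MAF and the aryl hydrocarbon receptor, encoded by Maf and Ahr, which bind the Il10 gene together. BATF pairs with JUN proteins and recruits IRF4 to joint DNA sites, and Blimp-1, encoded by Prdm1, is needed for Il10 expression in several effector and regulatory T cells. EGR2 is induced through NFAT after antigen receptor signalling and marks CD4+ cells that carry LAG-3 and secrete interleukin 10, and NFIL3 is a basic leucine zipper factor that favours Il10 in T helper cells.

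The promoters of the genes that were higher in both subsets are shown first, where the RefSeq promoter table (GRCm38.p6, the C57BL/6J reference, not DBA/1) holds them. It held 5 of the 9 genes, and Prdm1, Irf4, Batf and Nfil3 among them were higher in both. Each line gives the 250 bases before the start that the table lists, with matches to 5 motifs in capitals: TGANTCA of BATF and JUN dimers, GCGTG of the aryl hydrocarbon receptor, GAAA repeated after any 2 bases for interferon regulatory factors, TTANGTAA of NFIL3 and GCGNGGG of EGR proteins, searched on both strands.
Prdm1, chr10:44458749-44458998, minus strand: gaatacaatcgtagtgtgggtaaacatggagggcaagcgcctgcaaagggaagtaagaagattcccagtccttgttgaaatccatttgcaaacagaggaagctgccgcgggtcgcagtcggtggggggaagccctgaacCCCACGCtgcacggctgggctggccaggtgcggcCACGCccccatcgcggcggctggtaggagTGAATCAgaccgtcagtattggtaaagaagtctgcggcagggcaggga
Irf4, chr13:30748983-30749232, plus strand: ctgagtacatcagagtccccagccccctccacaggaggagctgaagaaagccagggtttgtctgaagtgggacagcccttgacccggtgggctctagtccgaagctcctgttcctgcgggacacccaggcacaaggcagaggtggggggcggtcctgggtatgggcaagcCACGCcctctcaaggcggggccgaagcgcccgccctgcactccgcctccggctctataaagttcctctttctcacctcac
Batf, chr12:85686470-85686719, plus strand: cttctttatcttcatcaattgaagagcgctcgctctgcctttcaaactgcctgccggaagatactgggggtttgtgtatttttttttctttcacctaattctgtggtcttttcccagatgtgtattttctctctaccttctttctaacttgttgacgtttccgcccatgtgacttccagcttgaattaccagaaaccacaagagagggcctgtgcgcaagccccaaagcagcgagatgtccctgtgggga
Nfil3, chr13:52981040-52981289, minus strand: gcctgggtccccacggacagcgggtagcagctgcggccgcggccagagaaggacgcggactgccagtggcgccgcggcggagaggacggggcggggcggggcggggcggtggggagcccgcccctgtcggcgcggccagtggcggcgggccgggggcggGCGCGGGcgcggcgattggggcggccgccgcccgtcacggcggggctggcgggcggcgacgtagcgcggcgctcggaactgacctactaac
The Prdm1 promoter held a TGANTCA match from -48 to -42 of the start, GCGTG matches from -109 to -105 and from -77 to -73, and a GCGNGGG match from -111 to -105 that overlaps the first of these. The Irf4 promoter held a GCGTG match from -80 to -76, and the Nfil3 promoter a GCGNGGG match from -91 to -85. The Batf window held none of the 5 motifs, and none of the 4 windows held the GAAA repeat or TTANGTAA. Over the 32851 promoters of the table, the same window held TGANTCA in 6.75%, GCGTG in 28.16%, the GAAA repeat in 2.98%, TTANGTAA in 2.06% and GCGNGGG in 20.26%. These are matches of letters, and binding was not measured.

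The deposited values are log2 expression, so that a difference of 1 is a doubling. Array medians were 4.61 to 4.65 in the subsets and 4.79 to 4.81 in the CD4+ groups, and a probe set near its array's median may be near background, where a fold change understates the change. T cell markers were high in every group, with Cd3e between group means of 9.45 and 9.62. Il2ra, which encodes CD25, was higher in CD25+ cells than in CD4+ cells of injected mice by 4.66 ± 0.14 (log2 difference ± SE, adjusted p = 1.97e-07). It was also called higher in CD49b+ against CD4+ cells, by 2.12 ± 0.14 (adjusted p = 3.12e-06). Il2ra averaged 6.29 in CD49b+ and 8.83 in CD25+ cells. Itga2, which encodes CD49b, was not called in CD49b+ against CD4+ cells (-0.05 ± 0.11, adjusted p = 0.717). Against CD25+ cells, CD49b+ cells had a higher call for Itga2 (0.31 ± 0.10, adjusted p = 0.0349), and it was lower in CD25+ against CD4+ cells (-0.36 ± 0.11, adjusted p = 0.0247). Either call was lost on leaving out any of 4 arrays, with adjusted p of 0.0789 to 0.108 and of 0.0539 to 0.118. The transcript of Foxp3, the factor of classical regulatory T cells, was higher in both subsets than in CD4+ cells, by 1.81 ± 0.12 in CD49b+ (adjusted p = 3.18e-06) and by 3.61 ± 0.12 in CD25+ cells (adjusted p = 1.97e-07). Replicate 3 of both subsets stood apart, with a mean signal of the poly-A control transcripts of 8.66 in CD49b+ and 8.51 in CD25+ cells, against 5.52 to 6.98 on the other 8 arrays. Results for Il10, Egr2 and Nfil3, which were lowest on these arrays, are given with and without them. This was chosen after seeing the data. Leaving out the lowest arrays raises the subset means of these genes by construction. For these genes they also lay farthest from their group means, so that leaving them out narrows the spread. Calls made or kept without them, higher or lower, are thus no separate support. The Gapdh signal at the 3' end minus that at the 5' end, a sign of RNA quality, was 0.23 to 0.69 in CD49b+, 0.37 to 0.60 in CD25+ and 0.13 to 0.26 in CD4+ cells of injected mice, and -0.01 to 0.06 in CD4+ cells of naive mice. It moved with the groups in the comparisons below, and its part in them was not tested. Each difference comes from a single limma fit of all 10 arrays, two-sided, with p-values adjusted by the Benjamini-Hochberg method over all genes tested and a call at an adjusted p under 0.05.

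Both subsets carried more transcript of most of the transcription factors than CD4+ cells of injected mice. Maf, Ahr, Prdm1, Irf4, Batf and Nfil3, 6 of the 9 genes, were called higher in CD49b+ cells and 0 lower, and the same 6 with Il10, 7 in all, were higher in CD25+ cells and 0 lower. At an unadjusted p under 0.05 in limma the lower genes numbered 1 in CD49b+ and 0 in CD25+ cells. Over all 11037 genes tested, 2943 and 2440 were lower at that threshold. The background is large: 53.4% of all genes tested were called in CD49b+ against CD4+ cells (29.9% higher and 23.5% lower) and 38.6% in CD25+ against CD4+ cells (20.8% higher and 17.8% lower). The median log2 difference of the 9 genes was 1.55 in CD49b+ and 1.61 in CD25+ cells, against 0.03 and 0.02 over all genes. The comparisons share the 2 CD4+ arrays of injected mice, so that their calls are not independent of each other. The arrays did not overlap for 7 genes that were higher and 1 lower in CD49b+ against CD4+ cells, where 70.3% of all genes did so (37.3% higher and 33% lower), and for 8 higher in CD25+ against CD4+ cells, where 58.9% did (31% higher and 27.9% lower). In bulk samples, more cells that carry a transcript and more transcript per cell cannot be told apart.

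**Figure D1:**
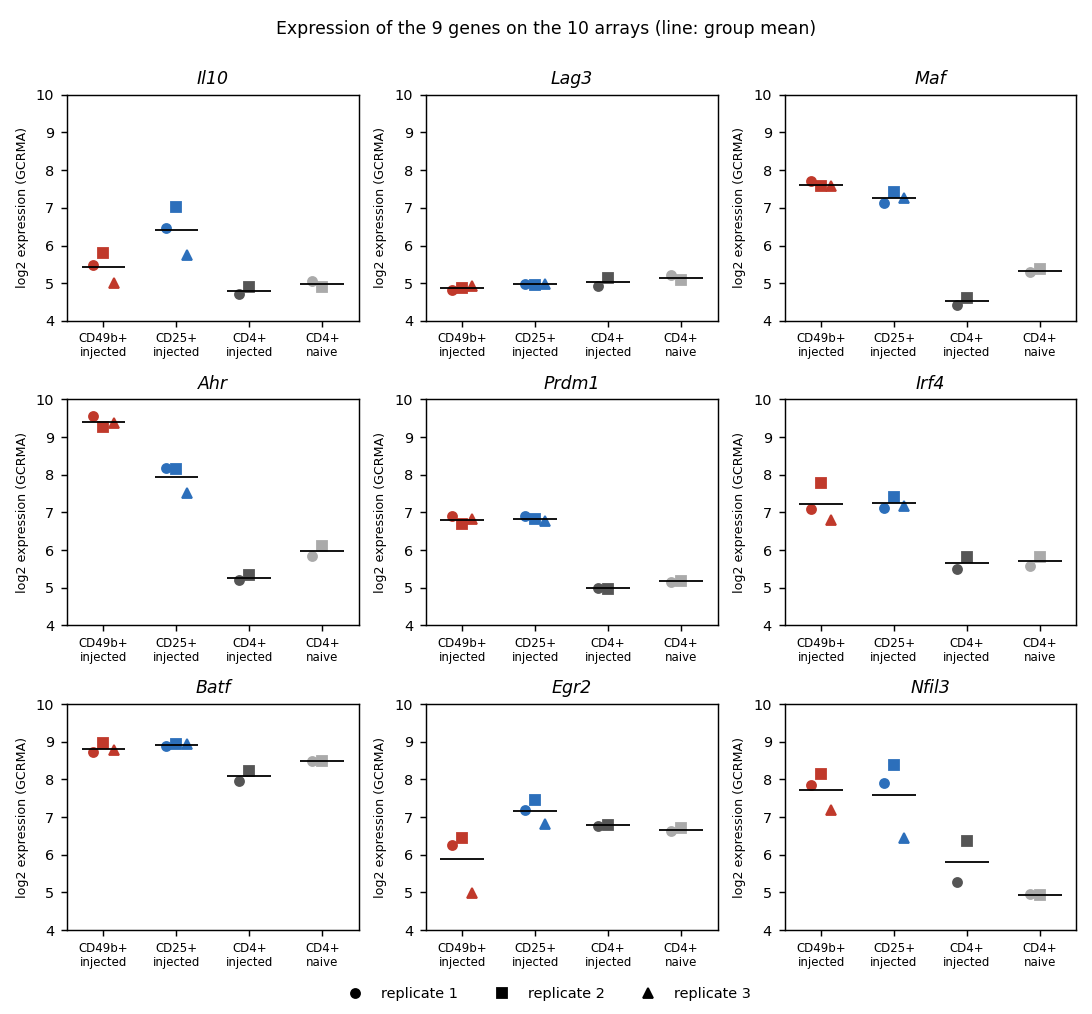
Log2 expression (vertical axis, GCRMA values) of the main probe set of each of the 9 genes on the 10 arrays, by group, with replicate numbers as symbols and the group mean as a line. Maf, Ahr, Prdm1, Irf4, Batf and Nfil3 stand higher in both subsets than in CD4+ cells of injected mice, Il10 is highest in CD25+ cells, Egr2 is lowest in CD49b+ cells, and Lag3 lies between 4.82 and 5.22 on every array.

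Il10 was highest in CD25+ cells, with CD49b+ cells between them and the CD4+ groups. It measured 5.47, 5.81 and 5.01 in CD49b+ cells, 6.46, 7.03 and 5.74 in CD25+ cells, 4.70 and 4.90 in CD4+ cells of injected mice and 5.05 and 4.90 in those of naive mice. The ranges of the subsets overlapped, since the highest CD49b+ array exceeded the lowest CD25+ array, and replicate 3 was the lowest of both. CD25+ cells were 1.61 ± 0.33 above CD4+ cells of injected mice (adjusted p = 0.00379), a 3.05-fold difference, and the call was kept without any one array and without replicate 3 of both subsets (1.94, adjusted p = 0.000325). On the CD4+ arrays of injected mice Il10 lay near the array median (47.6 and 52.1 percentiles), so that this fold has no firm size. CD49b+ cells were 0.63 ± 0.33 above CD4+ cells of injected mice, which was not called (adjusted p = 0.131; 95% interval -0.10 to 1.36). Without replicate 3 of both subsets, left out after seeing the data, the difference of CD49b+ cells was 0.84 and was called (adjusted p = 0.00974).
CD49b+ cells were 0.98 ± 0.29 below CD25+ cells on the log2 scale, a log2 difference of -0.98 (adjusted p = 0.0295). The call did not survive leaving out CD49b+ replicate 1 (-1.004, with an adjusted p of 0.0624) or 3 (-0.77, 0.104), or CD25+ replicate 1 (-0.96, 0.0859) or 2 (-0.67, 0.0792). It was kept without replicate 3 of both subsets (-1.10, adjusted p = 0.00585). The CD49b+ array was the lower one at each of the 3 replicate numbers. With the replicate number as a block the adjusted p was 0.000546, though the labels do not say what same-numbered arrays share.

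Lag3 was not called in any comparison. It measured 4.82, 4.86 and 4.94 in CD49b+ cells, 4.98, 4.96 and 4.98 in CD25+ cells, 4.92 and 5.14 in CD4+ cells of injected mice and 5.22 and 5.08 in those of naive mice. All 10 values lay between the 52.6 and 58.1 percentiles of their arrays, close to the median, so that whether this probe set registered any Lag3 transcript cannot be told. The log2 difference was -0.16 ± 0.09 in CD49b+ (adjusted p = 0.162) and -0.06 ± 0.09 in CD25+ cells (adjusted p = 0.658) against CD4+ cells of injected mice, and -0.10 ± 0.08 in CD49b+ against CD25+ cells (adjusted p = 0.385). The 95% intervals ran from -0.36 to 0.04, from -0.25 to 0.14 and from -0.28 to 0.08. The sign in CD25+ against CD4+ cells turned with quantile normalization (0.03) or median centring (0.04).

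Maf and Ahr had the largest differences of the 9 genes between the subsets and CD4+ cells of injected mice. Maf, the c-MAF factor, measured 7.70, 7.57 and 7.58 in CD49b+ cells and 7.13, 7.41 and 7.26 in CD25+ cells, against 4.43 and 4.61 in CD4+ cells of injected mice, and stood at 5.30 and 5.38 in CD4+ cells of naive mice. The subsets lay far above every CD4+ array. Against CD4+ cells of injected mice, Maf was higher by 3.10 ± 0.10 in CD49b+ cells (adjusted p = 6.26e-08), 8.56-fold and the 78th of 11037 genes by absolute difference, and by 2.75 ± 0.10 in CD25+ cells (adjusted p = 2.66e-07), 6.71-fold and the 54th. Both CD4+ arrays of injected mice lay under the median of their arrays, so that these folds have no firm size.
Ahr, a receptor for dioxins and tryptophan metabolites, measured 9.55, 9.27 and 9.38 in CD49b+ cells, 8.18, 8.15 and 7.51 in CD25+ cells, 5.20 and 5.33 in CD4+ cells of injected mice and 5.84 and 6.12 in those of naive mice. No 2 groups overlapped. It was higher by 4.13 ± 0.19 in CD49b+ against injected CD4+ cells (adjusted p = 3.53e-07), 17.5-fold and the 17th of 11037, and by 2.68 ± 0.19 in CD25+ cells (adjusted p = 7.83e-06), 6.42-fold and the 61st.
CD49b+ cells carried more Ahr than CD25+ cells by 1.45 ± 0.17 (adjusted p = 0.000182), 2.73-fold, and this call was kept without any one array. Maf was also called higher in CD49b+ than in CD25+ cells, by 0.35 ± 0.09 (adjusted p = 0.0159). It was lost on leaving out CD49b+ replicate 1 (0.31, with an adjusted p of 0.0549), CD25+ replicate 1 (0.29, 0.0578) or replicate 3 of both subsets (0.36, 0.0694).

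**Figure D2:**
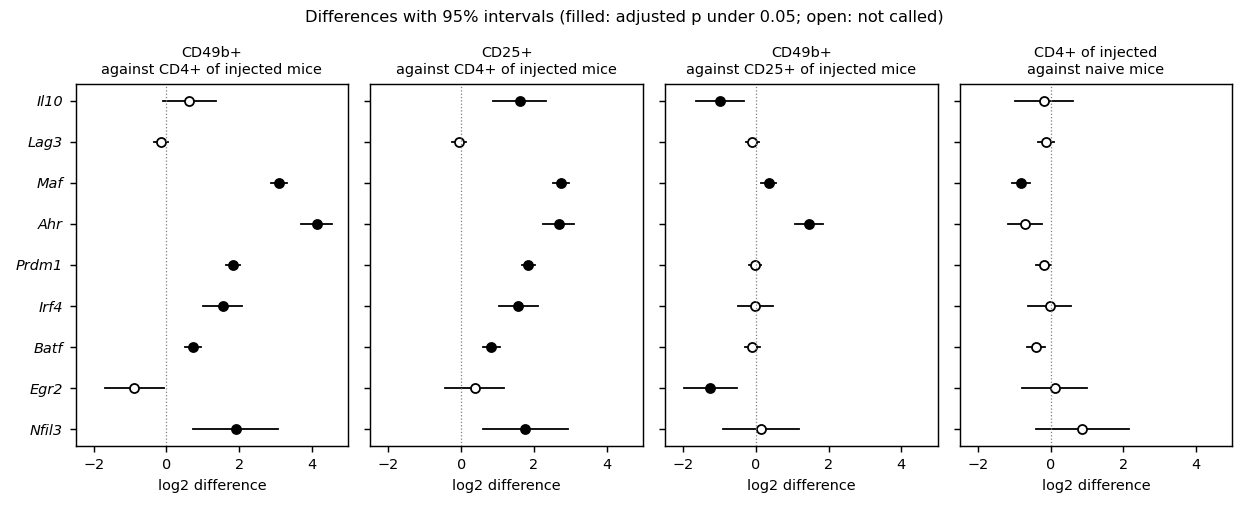
Log2 difference (horizontal axis) of each gene in the 4 comparisons, with 95% intervals of the limma fit, filled where the adjusted p was under 0.05. Maf and Ahr are the farthest right in both comparisons of a subset with CD4+ cells, and between CD49b+ and CD25+ cells Ahr and Maf lie to the right and Il10 and Egr2 to the left.

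Prdm1, which encodes the repressor Blimp-1, was higher in both subsets. It measured 6.90, 6.70 and 6.83 in CD49b+ cells, 6.91, 6.83 and 6.76 in CD25+ cells, 4.995 and 4.98 in CD4+ cells of injected mice and 5.15 and 5.19 in those of naive mice. Every subset array lay above every CD4+ array, by 1.82 ± 0.08 in CD49b+ (adjusted p = 3.72e-07) and 1.85 ± 0.08 in CD25+ cells (adjusted p = 6.42e-07) against CD4+ cells of injected mice. The subsets differed by -0.03 ± 0.08 (adjusted p = 0.841), CD49b+ minus CD25+, with a 95% interval from -0.20 to 0.14, and its sign turned without CD49b+ replicate 2 (0.03) or CD25+ replicate 1 (0.01).

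Irf4 and Batf, whose proteins bind DNA together, were also higher in both subsets. Irf4 measured 7.09, 7.77 and 6.80 in CD49b+ cells, 7.13, 7.41 and 7.18 in CD25+ cells, 5.51 and 5.83 in CD4+ cells of injected mice and 5.59 and 5.81 in those of naive mice. It was higher by 1.55 ± 0.24 in CD49b+ (adjusted p = 0.000553) and by 1.57 ± 0.24 in CD25+ cells (adjusted p = 0.000812), and the subsets overlapped throughout, with a difference of -0.02 ± 0.22 (adjusted p = 0.959; 95% interval -0.50 to 0.46).
Batf measured 8.72, 8.95 and 8.77 in CD49b+ cells, 8.89, 8.93 and 8.93 in CD25+ cells, 7.95 and 8.23 in CD4+ cells of injected mice and 8.49 on both arrays of naive mice. The smallest of the called differences from CD4+ cells of injected mice were those of Batf, at 0.73 ± 0.10 in CD49b+ (adjusted p = 0.000303) and 0.83 ± 0.10 in CD25+ cells (adjusted p = 0.000229), both under 2-fold. CD49b+ and CD25+ cells differed in Batf by -0.10 ± 0.09 (adjusted p = 0.467; 95% interval -0.30 to 0.11).

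Nfil3 was higher in both subsets, with a wide spread between replicates. It measured 7.86, 8.14 and 7.18 in CD49b+ cells, 7.90, 8.38 and 6.46 in CD25+ cells, 5.28 and 6.36 in CD4+ cells of injected mice and 4.95 and 4.93 in those of naive mice. The subsets lay above every CD4+ array, though CD25+ replicate 3 only just above CD4+ replicate 2 of injected mice. Nfil3 was higher by 1.90 ± 0.52 in CD49b+ (adjusted p = 0.012) and by 1.76 ± 0.52 in CD25+ cells (adjusted p = 0.0236). Without CD4+ replicate 1 of injected mice neither call held (1.36, adjusted p = 0.113 in CD49b+ and 1.22, adjusted p = 0.183 in CD25+ cells). The call in CD25+ cells was also lost without CD25+ replicate 1 (1.60, adjusted p = 0.0672) or 2 (1.36, 0.0638). Without replicate 3 of both subsets Nfil3 was higher by 2.18 in CD49b+ (adjusted p = 0.00127) and by 2.32 in CD25+ cells (adjusted p = 0.00141). Between CD49b+ and CD25+ cells the difference was 0.14 ± 0.47 (adjusted p = 0.855), and the 95% interval from -0.90 to 1.19 leaves room for a 2-fold difference either way.

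Egr2 was the factor that did not follow the others. It measured 6.25, 6.46 and 4.99 in CD49b+ cells, 7.19, 7.46 and 6.81 in CD25+ cells, 6.76 and 6.80 in CD4+ cells of injected mice and 6.62 and 6.72 in those of naive mice. All CD49b+ arrays lay below, and all CD25+ arrays above, every CD4+ array on this probe set, with CD49b+ replicate 3 far below the rest. CD25+ replicate 3 (6.81) lay only just above CD4+ replicate 2 of injected mice (6.80). Neither difference from CD4+ cells of injected mice was called, at -0.88 ± 0.36 in CD49b+ (adjusted p = 0.0653) and 0.37 ± 0.36 in CD25+ cells (adjusted p = 0.451). Without replicate 3 of both subsets, left out after seeing the data, both were called, at -0.42 (adjusted p = 0.0215) in CD49b+ and 0.54 (adjusted p = 0.0109) in CD25+ cells. The CD49b+ difference was then smaller than with all arrays, and was called on a narrower spread. This CD49b+ difference was also called without CD49b+ replicate 2 (-1.16, adjusted p = 0.024) and with quantile normalization (-0.96, adjusted p = 0.0394). Egr2 was lower in CD49b+ than in CD25+ cells, at a log2 difference of -1.25 ± 0.33 (adjusted p = 0.0164), a 2.38-fold difference. The call was lost without CD25+ replicate 1 (-1.23, adjusted p = 0.0537) or 2 (-1.10, 0.0529) and kept without replicate 3 of both subsets (-0.97, adjusted p = 0.00115). With the replicate number as a block the adjusted p was 0.000333.

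Between CD49b+ and CD25+ cells, then, 2 of the 9 genes had a higher call (Ahr and Maf), 2 a lower one (Il10 and Egr2) and 5 were not called, where 29.9% of all genes were called (17.5% higher and 12.4% lower). The arrays of the subsets did not overlap for Ahr and Maf, which were higher, and Egr2 and Lag3, which were lower, as for 41.6% of all genes (24.3% higher and 17.3% lower). Without replicate 3 of both subsets, Ahr was called higher and Il10 and Egr2 lower.

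**Figure D3:**
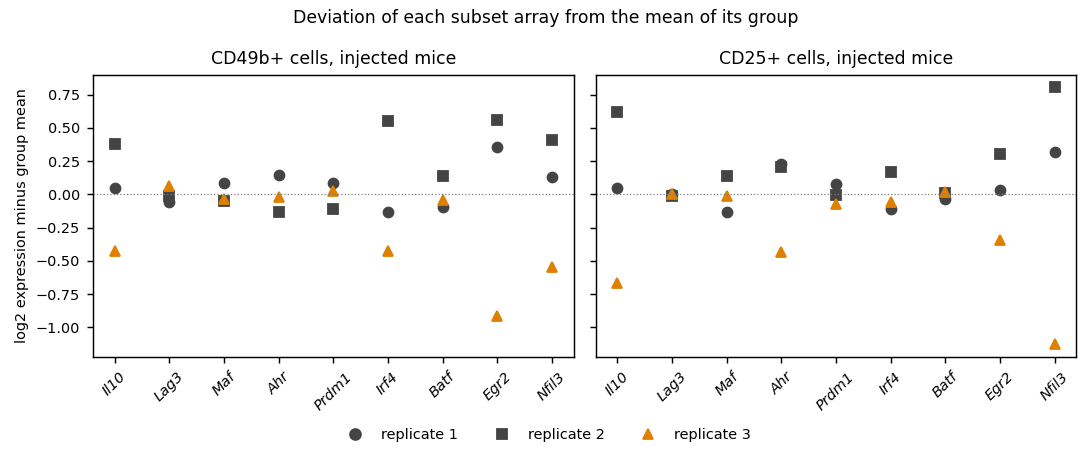
Log2 expression of each gene on each subset array minus the mean of its group, CD49b+ at left and CD25+ at right, with replicate 3 in orange. Il10, Egr2 and Nfil3 are lowest in replicate 3 of both subsets, and Lag3, Prdm1, Batf and Maf vary least.

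Il10, Egr2 and Nfil3 moved together between the replicates of a subset. They were lowest in replicate 3 of both CD49b+ and CD25+ cells, by 0.42 and 0.67 under the group mean for Il10, 0.91 and 0.34 for Egr2 and 0.55 and 1.12 for Nfil3, and highest in replicate 2. Ahr, Prdm1 and Irf4 were lowest in replicate 3 of a single subset, and Lag3, Maf and Batf of neither. Over all genes tested, 19.4% were lowest in replicate 3 of both. The poly-A control signal was high on the same arrays, and its part in these values was not tested.

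The probe sets of a gene did not always tell the same. The other probe set of Ahr measured 4.83, 5.05 and 4.74 in CD49b+ cells, 4.63, 4.86 and 4.52 in CD25+ cells, 4.74 and 5.02 in CD4+ cells of injected mice and 5.02 and 5.04 in those of naive mice, close to the array medians in all groups. When every probe set was tested, it differed by -0.01 (adjusted p = 0.948) in CD49b+ and -0.22 (adjusted p = 0.241) in CD25+ against CD4+ cells of injected mice. The other probe set of Irf4 lay between 4.94 and 5.49 on all 10 arrays and differed by 0.05 (adjusted p = 0.759) and -0.22 (adjusted p = 0.196). The higher levels of Ahr and Irf4 thus each rest on a single probe set. With the mean of a gene's probe sets, the difference from CD4+ cells of injected mice was 2.06 for Ahr and 0.80 for Irf4 in CD49b+ cells, 1.23 for Ahr and 0.68 for Irf4 in CD25+ cells, all called, and 0.83 for Ahr between CD49b+ and CD25+ cells.
Both probe sets of Egr2 gave the same order of group means. The other one measured 6.09, 6.47 and 5.31 in CD49b+ cells, 7.20, 7.26 and 6.79 in CD25+ cells, 6.63 and 6.73 in CD4+ cells of injected mice and 6.41 and 6.58 in those of naive mice. On it, CD49b+ replicate 2 lay above CD4+ replicate 1 of naive mice, so that these groups overlapped. The other probe set differed between CD49b+ and CD25+ cells by -1.13 (adjusted p = 0.0105).

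**Figure D4:**
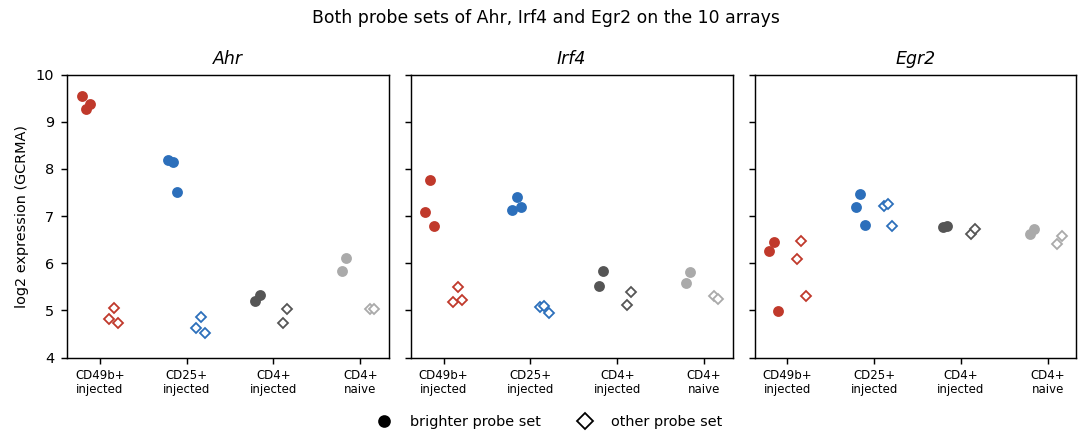
Log2 expression of both probe sets of Ahr, Irf4 and Egr2 on the 10 arrays, by group, with filled circles for the brighter probe set and open diamonds for the other. The other probe sets of Ahr and Irf4 stay between 4.5 and 5.5 in all groups, while the Egr2 pair runs side by side.

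Injection of dendritic cells was compared through CD4+ cells of injected against naive mice. Of the 9 genes Maf was called lower in cells of injected mice, 0 were called higher and 8 were not called, where 1.39% of all genes were called (0.0272% higher and 1.36% lower). At an unadjusted p under 0.05 in limma, 0 of the 9 were higher and 3 lower. Over all 11037 genes tested, 270 were higher and 1095 lower at that threshold. The arrays did not overlap for 2 higher and 4 lower genes of the 9, where 48.5% of all genes did so (18.6% higher and 30% lower). Maf differed by -0.82 ± 0.11 (adjusted p = 0.00909), a call that leaving out naive replicate 2 (-0.78, with an adjusted p of 0.13) or injected replicate 1 (-0.73, 0.0781) removed, as did fitting only these 4 arrays (0.061). Ahr differed by -0.71 ± 0.21 (adjusted p = 0.171), Batf by -0.40 ± 0.11 (adjusted p = 0.145) and Prdm1 by -0.19 ± 0.09 (adjusted p = 0.468), none of them called. Il10 differed by -0.17 ± 0.36 (adjusted p = 0.935; 95% interval -0.97 to 0.63), Lag3 by -0.12 ± 0.10 (0.712), Irf4 by -0.03 ± 0.26 (0.99), Egr2 by 0.11 ± 0.40 (0.968) and Nfil3 by 0.88 ± 0.57 (0.622), where the arrays of injected mice were themselves far apart. The sign for Irf4 turned with quantile normalization (0.03).
Myeloid and dendritic cell markers were lower in the same comparison, with 4 of 7 tested called lower and 0 higher (6 and 0 at an unadjusted p under 0.05 in limma). The log2 of their summed level was 9.86 to 10.12 in injected and 11.33 to 11.51 in naive mice, and Itgam and Lyz2 averaged under the array medians in both groups. Their part in the difference of Maf was not tested.

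Markers of other cells were set beside the subset results. The shares of all genes called against CD4+ cells were 29.9% higher and 23.5% lower in CD49b+, and 20.8% higher and 17.8% lower in CD25+ cells. At an unadjusted p under 0.05 in limma, 3609 of all 11037 genes were higher and 2943 lower in CD49b+ cells. In CD25+ cells 2863 were higher and 2440 lower. The summed myeloid markers lay at 8.47 to 8.83 in CD49b+ cells, 10.62 to 11.33 in CD25+ cells and 9.86 to 10.12 in CD4+ cells of injected mice, and 5 of 7 were lower and 0 higher in CD49b+ against CD4+ cells (6 and 0 at an unadjusted p under 0.05 in limma). In CD25+ against CD4+ cells 3 were higher and 3 lower. Of 7 tested natural killer cell markers 3 were higher and 3 lower in CD49b+, and 2 higher and 3 lower in CD25+, when set against CD4+ cells, with summed levels of 9.54 to 10.09 in CD49b+, 8.12 to 8.74 in CD25+ and 8.86 to 8.96 in CD4+ cells. The cytotoxic genes Gzma and Nkg7 were higher in CD49b+ than in CD4+ cells by 3.97 ± 0.26 (adjusted p = 2.73e-06) and 2.78 ± 0.39 (adjusted p = 3e-04), as was Ncr1, the receptor NKp46 (0.65 ± 0.22, adjusted p = 0.0301), while Prf1, Tyrobp and Zbtb16 were lower. Klra8 and Klrb1c, whose genes vary between mouse strains, averaged 3.33 and 4.58 in CD49b+ cells, under the array medians. Jchain, a gene of plasma cells, in which Prdm1 and Irf4 are also active, averaged 7.03 in CD49b+, 8.54 in CD25+ and 8.57 in CD4+ cells of injected mice, and was not called in either subset. Of 4 tested B and plasma cell markers 1 was higher and 1 lower in CD49b+, and 1 higher with 0 lower in CD25+ against CD4+ cells (0 lower at an unadjusted p under 0.05 in limma). Their summed level was 8.02 to 8.79 in CD49b+, 8.69 to 9.99 in CD25+ and 8.90 to 9.55 in CD4+ cells of injected mice. The higher one was Cd79b, a chain of the B cell receptor complex, by 0.96 ± 0.14 in CD49b+ (adjusted p = 0.000373) and 1.53 ± 0.14 in CD25+ cells (adjusted p = 3.85e-05), while its partner Cd79a averaged 4.66 in CD49b+, 4.61 in CD25+ and 4.72 in CD4+ cells. The part of such cells in the differences was not tested.

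The genes around the cytokine were followed in lists by role. Of 7 tested genes of interleukin 10 signalling, 4 were called higher in CD49b+ (0 lower; 1 lower at an unadjusted p under 0.05 in limma) and 3 higher in CD25+ against CD4+ cells, and 4 were lower in CD49b+ than in CD25+ cells. The receptor chain gene Il10ra differed by 0.87 ± 0.24 in CD49b+ against CD4+ cells (adjusted p = 0.0126), a call lost without CD4+ replicate 1 of injected mice (0.0685). Bcl3, which encodes a nuclear IkappaB protein induced by interleukin 10, was higher in CD25+ cells than in CD4+ cells by 1.41 ± 0.08 (adjusted p = 2.55e-06) and lower in CD49b+ than in CD25+ cells (-1.18 ± 0.07, adjusted p = 3.52e-06). The second receptor chain, Il10rb, rose by 0.63 ± 0.08 in CD25+ cells (adjusted p = 0.000394). With single arrays left out, the count of higher calls in CD49b+ against CD4+ cells fell to between 1 and 3. Among all 11037 genes, 29.9% were called higher and 23.5% lower in CD49b+ cells relative to CD4+ cells of injected mice. For CD25+ cells these shares were 20.8% and 17.8%. Set against CD25+ cells, CD49b+ cells had 17.5% of all genes called higher and 12.4% lower.

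Il10 lies between Il19 and Mapkapk2 in the RefSeq gene table. Mapkapk2, a kinase of the p38 pathway, was higher by 0.80 ± 0.12 in CD49b+ (adjusted p = 0.000393) and by 1.04 ± 0.12 in CD25+ cells (adjusted p = 0.00013) than in CD4+ cells. Il20, the other listed neighbour tested, was lower, by -0.36 ± 0.09 in CD49b+ (adjusted p = 0.00918) and -0.30 ± 0.09 in CD25+ cells (adjusted p = 0.028). Either Il20 call was lost when certain single arrays were left out (adjusted p up to 0.0838 and 0.185). Lag3 lies next to Cd4. ADAM17, which with ADAM10 sheds LAG-3 from the cell surface, had its gene called higher in both subsets, by 0.68 ± 0.10 in CD49b+ (adjusted p = 0.000347) and 0.51 ± 0.10 in CD25+ cells (adjusted p = 0.00279), though the mean of the probe sets of Adam17 was not called in either (adjusted p = 0.115 and 0.309).

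Of 8 cytokine and receptor genes that act upstream of Il10, 2 were higher and 4 lower in CD49b+, and 2 higher with 2 lower in CD25+ against CD4+ cells (1 to 2 higher in CD49b+ and 1 to 3 lower in CD25+ cells with single arrays left out). The shares over all genes tested were 29.9% higher and 23.5% lower in CD49b+, and 20.8% higher and 17.8% lower in CD25+ cells. The shared signalling chain of the interleukin 6 and 27 receptors, Il6st, was lower in CD49b+ than in either other group, with differences of -2.51 ± 0.17 against CD4+ (adjusted p = 2.79e-06) and -2.12 ± 0.15 against CD25+ cells (adjusted p = 6.72e-06). Il6ra was lower in CD49b+ cells in the same comparisons (-1.96 ± 0.21, adjusted p = 5.75e-05, and -1.27 ± 0.19, adjusted p = 0.000783). Icos, a costimulatory receptor, was higher by 1.32 ± 0.08 in CD49b+ (adjusted p = 1.68e-06) and by 1.07 ± 0.08 in CD25+ cells (adjusted p = 1.1e-05). Il27ra, the chain specific to interleukin 27, was not called in either (0.17 ± 0.10, adjusted p = 0.2, and 0.07 ± 0.10, adjusted p = 0.6).

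**Figure D5:**
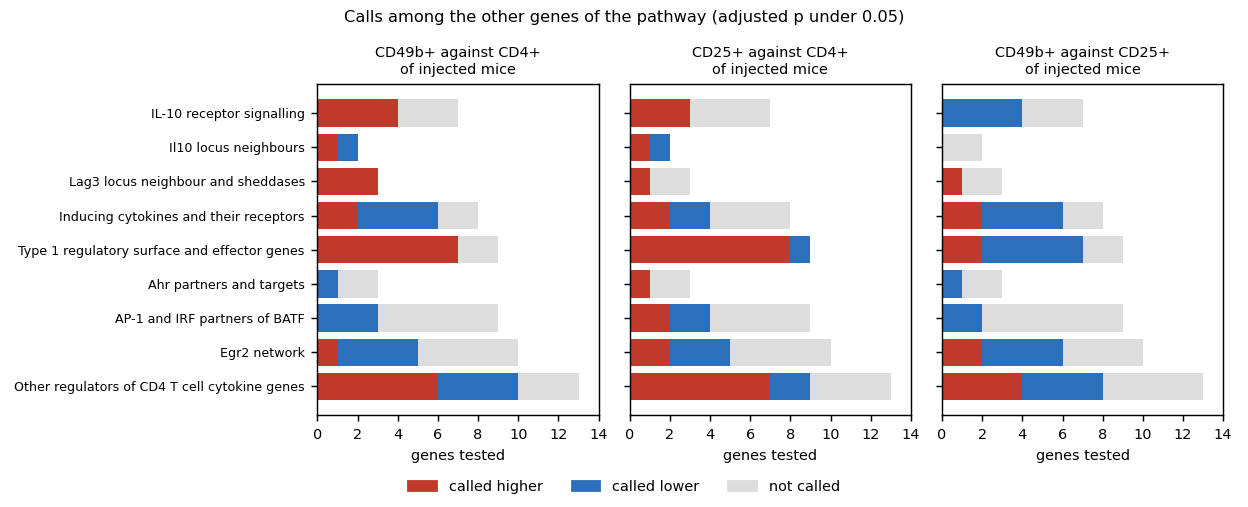
Number of tested genes (horizontal axis) called higher, called lower or not called in each list of other genes of the pathway, in the 3 comparisons among injected mice. The surface and effector list has 7 higher in CD49b+ and 8 higher in CD25+ against CD4+ cells. Of all genes tested, 29.9% and 20.8% were called higher in the same comparisons.

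Of 9 tested surface and effector genes linked to type 1 regulatory cells, 7 were higher and 0 lower in CD49b+ (0 lower at an unadjusted p under 0.05 in limma), and 8 higher with 1 lower in CD25+ against CD4+ cells, with medians of 0.97 and 2.02. Against CD25+ cells, CD49b+ cells had 2 of them higher and 5 lower. Gzmb, the protease granzyme B, was higher by 5.22 ± 0.21 in CD49b+ (adjusted p = 1.73e-07) and by 2.18 ± 0.21 in CD25+ cells (adjusted p = 4.79e-05) than in CD4+ cells, and by 3.04 ± 0.19 in CD49b+ than in CD25+ cells (adjusted p = 3.21e-06). Nt5e, the ectoenzyme CD73, was higher in CD25+ cells than in CD4+ cells (2.60 ± 0.18, adjusted p = 7.66e-06) and lower in CD49b+ than in CD25+ cells (-1.78 ± 0.16, adjusted p = 3.97e-05), as was Tnfrsf4, the receptor OX40 (2.98 ± 0.19, adjusted p = 4.24e-06, and -1.48 ± 0.17, adjusted p = 0.000183). The inhibitory receptor gene Ctla4 was higher in CD25+ cells than in CD4+ cells by 2.25 ± 0.35 (adjusted p = 0.000883).

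Partners of the factors were counted in the same way. For each of the lists below, the shares over all genes tested were 29.9% higher and 23.5% lower in CD49b+ against CD4+ cells. In CD25+ against CD4+ cells they were 20.8% higher and 17.8% lower. Of 9 AP-1 and IRF partners of BATF, 0 were called higher and 3 lower in CD49b+ (0 higher at an unadjusted p under 0.05 in limma), and 2 higher with 2 lower in CD25+ against CD4+ cells. With single arrays left out, 1 to 5 were lower in CD49b+ cells. The dimer partner Jun differed by -0.80 ± 0.38 in CD49b+ (adjusted p = 0.102) and by 0.01 ± 0.38 in CD25+ against CD4+ cells (adjusted p = 0.982). Batf3, a close relative of BATF, was higher in CD25+ cells than in CD4+ cells by 2.01 ± 0.20 (adjusted p = 6.31e-05) and lower in CD49b+ than in CD25+ cells (-1.89 ± 0.18, adjusted p = 4.93e-05).
Of 9 listed partners and targets of the aryl hydrocarbon receptor, 3 were tested. Arnt, its DNA-binding partner, differed by -0.24 ± 0.08 in CD49b+ (adjusted p = 0.0267) and -0.06 ± 0.08 in CD25+ against CD4+ cells (adjusted p = 0.56), the first a call lost without CD4+ replicate 1 or 2 of injected mice or CD49b+ replicate 2 (adjusted p up to 0.151). Tiparp, a target that feeds back on the receptor, was not called in CD49b+ (-0.64 ± 0.44, adjusted p = 0.246) or CD25+ cells (-0.50 ± 0.44, adjusted p = 0.398).
In the network of EGR2, 1 of 10 genes was higher and 4 lower in CD49b+ and 2 higher and 3 lower in CD25+ cells, each set against CD4+ cells, with 1 to 2 higher and 1 to 2 lower in CD25+ cells when single arrays were left out. Rnf128, the ubiquitin ligase GRAIL of anergic T cells, was higher in CD49b+ than in either other group, by 1.65 ± 0.12 against CD4+ (adjusted p = 5.42e-06) and 1.36 ± 0.11 against CD25+ cells (adjusted p = 1.51e-05). Nab2, a corepressor of EGR proteins, was higher in CD25+ cells than in CD4+ cells (0.61 ± 0.08, adjusted p = 0.000359) and lower in CD49b+ than in CD25+ cells (-0.48 ± 0.07, adjusted p = 0.000899).

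Among 13 other regulators of cytokine genes in CD4+ T cells, 6 were higher and 4 lower in CD49b+, and 7 higher with 2 lower in CD25+ against CD4+ cells. All genes tested gave shares of 29.9% higher and 23.5% lower in CD49b+, and 20.8% higher and 17.8% lower in CD25+ cells. Tbx21, the T-bet factor of T helper 1 cells, was higher by 3.81 ± 0.41 in CD49b+ (adjusted p = 5.94e-05) and by 1.89 ± 0.41 in CD25+ cells (adjusted p = 0.00551), and higher in CD49b+ than in CD25+ cells by 1.92 ± 0.37 (adjusted p = 0.00343). Gata3 was higher in CD49b+ than in CD4+ cells by 2.68 ± 0.14 (adjusted p = 7.55e-07). Bach2, a repressor that holds down Prdm1 in lymphocytes, was lower in CD49b+ than in either other group, with differences of -3.09 ± 0.28 against CD4+ (adjusted p = 2.01e-05) and -2.62 ± 0.25 against CD25+ cells (adjusted p = 4.79e-05).

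The genes whose pattern lay closest to that of Il10, by the root mean square difference of log2 values centred on each gene's mean over the 10 arrays, were Irak1bp1 (0.168), Cd7 (0.211), Rnf216 (0.241), Tnf (0.256) and Pafah1b3 (0.258), among 10479 genes compared. Cd7 averaged 7.68 in CD49b+, 8.35 in CD25+ and 6.77 in CD4+ cells of injected mice, and Tnf averaged 7.72 in CD49b+, 8.45 in CD25+ and 7.18 in CD4+ cells of injected mice. Closest to Lag3 were Extl1 (0.051), Rps2 (0.065), Ninj2 (0.067), Napepld (0.068) and Tacr2 (0.069), all genes that, like Lag3, varied little between the arrays.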

How the data were processed

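The authors deposited log2 values for 45141 probe sets of 10 arrays, made with GCRMA (background correction, normalization between arrays and summary of probes) using, per the submitters' processing notes, Expression Console 1.2.1. The sources used here do not give whether it was run on all arrays at once. No depth applies, and the number of arrays limits the precision.

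Of the probe sets, 104 controls were set aside and 28898 carried 1 gene symbol, 28689 of them matched by gene number to the RefSeq gene table, which changed 0 symbols. Each of 17097 genes was represented by its brightest probe set, and those with at least 2 arrays above the 50th percentile of their array were tested. Limma 3.58.1 in R 4.3.3 fitted 4 group means, leaving 6 residual degrees of freedom. The script was tested on simulated data. Named genes are the 9 genes, the sort markers, up to 4 called members of each list per comparison with the greatest difference, some values of uncalled members and markers chosen after their values were seen, and the 5 genes most like Il10 and Lag3. The genes and lists were chosen with earlier results of these data known, and lists are described by counts without a test.

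Replicate numbers come from the labels, which do not say what they share. Deviations from the group means correlated between CD49b+ and CD25+ arrays of the same number (r = 0.158, 0.366 and 0.641), against -0.5 to 0.135 for different numbers. The block between these subsets thus rests on a pairing seen in these same data, not on the labels. The alternatives were other filters, quantile normalization, median centring, other uses of probe sets, another prior, a 2-fold threshold, array weights, the replicate block, only the arrays compared, and each array left out.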

Additional observations from a re-analysis of the deposited data

How the results depend on the processing

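Of the results recomputed for the 9 genes, 567 kept their direction and their side of the threshold, 25 lost a call, 9 gained one and 16 changed sign, all of these last uncalled. With single arrays left out, the log2 difference of Irf4 in CD4+ cells of injected against naive mice ran from -0.19 to 0.13, and that of Lag3 in CD25+ against CD4+ cells from -0.17 to 0.057. Between CD49b+ and CD25+ cells those of Prdm1, Irf4 and Nfil3 ran from -0.070 to 0.030, from -0.30 to 0.19 and from -0.42 to 0.55, and that of Itga2 in CD49b+ against CD4+ cells from -0.14 to 0.043. Quantile normalization turned Irf4 in CD4+ cells of injected against naive mice (0.027) and Lag3 in CD25+ against CD4+ cells (0.033), and median centring turned this Lag3 difference (0.041) and Itga2 in CD49b+ against CD4+ cells (0.065). With the mean of the probe sets, Irf4 turned between the subsets (0.12) and Stat3 in CD25+ against CD4+ cells, which had been called higher, was at -0.053. Without replicate 3 of both subsets, Irf4 (0.16) and Nfil3 (-0.15) turned between them.

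With single arrays left out, 0 to 1 of the 9 genes were called in CD4+ cells of injected against naive mice, 5 to 7 in CD49b+ and 6 to 7 in CD25+ against CD4+ cells, and 1 to 4 between CD49b+ and CD25+ cells. All genes called, 153, 5892, 4261 and 3297 with all arrays, numbered 16 to 116, 4357 to 5363, 2818 to 3970 and 2496 to 3132 in the same order. At a 2-fold threshold 0 of the 9 genes were called in CD4+ cells of injected against naive mice and 2 between the subsets, and 68, 1066, 711 and 562 of all genes in the 4 comparisons. Without the filter on dim genes 9123 and 7583 genes were called in CD49b+ and CD25+ against CD4+ cells, and 2500 in the second with a filter at the 70th percentile, both alternatives testing another number of genes. Fitting only the 4 CD4+ arrays called 0 genes in limma, also 0 of the 9, with 432 higher and 1305 lower at an unadjusted p under 0.05, and array weights called 328. Median centring moved the median of all genes from 0.03 to 0.14 in CD49b+ and from 0.02 to 0.12 in CD25+ against CD4+ cells, and the split of higher and lower calls from 3300 and 2592 to 4213 and 1793 and from 2297 and 1964 to 3263 and 1403. Counts for lists moved by over 1.5 times in 119 of 621 recomputations.

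The replicate block changed no call of the 9 genes between CD49b+ and CD25+ cells, where same-numbered arrays correlated positively. In CD49b+ and CD25+ against CD4+ cells only 2 numbers are shared. There the block added Il10 (0.90, adjusted p = 0.00139) and Egr2 (-0.57, adjusted p = 0.0267) in CD49b+ and Egr2 (0.69, adjusted p = 0.0157) in CD25+ cells, and it changed no other call of the 9 genes. Nfil3 was at 2.32 (adjusted p = 0.000123) in CD49b+ and 2.18 (adjusted p = 0.000269) in CD25+ cells with it. It called 377 genes in CD4+ cells of injected against naive mice, where same-numbered arrays correlated at -0.209. With naive numbers crossed, an alternative chosen after seeing the data, it called 526, 2 of them among the 9 genes. Leaving out replicate 3 of both subsets and fitting only the subset arrays with the block were also chosen after seeing the data. For changes not explained by the number of genes or arrays, the cause was not tested.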
